A study of Mus musculus with 4 samples.

Results

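Pax5, Ebf1, Tcf3, Lef1, Pou2af1, Foxo1, Bach2 and Il7r are 7 transcriptional regulators and 1 cytokine receptor gene of B-cell development. They were chosen by symbol, and all 8 of them matched 1 feature each among the 55416 features of the series. The cells came from the femoral epiphysis, the cartilage-capped end of the growing thigh bone, of wild-type mice on postnatal days 7, 8, 10 and 12. Each day was 1 library of droplet single-cell RNA sequencing that reads the 3' end of transcripts, and the labels do not say how many animals went into a library. The protocol text names tissue from a bowel cancer at the digestion step, so whether those steps are the ones used here is unsure.

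B cells arise in the marrow from lymphoid progenitors through pro-B and pre-B stages. Tcf3 encodes the E proteins E12 and E47, which with Foxo1 act early in this path and turn on Ebf1. Ebf1 and Tcf3 then turn on Pax5, which commits cells to the B lineage. Il7r encodes the alpha chain of the interleukin-7 receptor, whose signal mouse B-cell progenitors need to survive and divide. Lef1 is a nuclear partner of beta-catenin in Wnt signalling and is used by pro-B cells. Pou2af1 encodes OBF-1, a coactivator that binds to octamer factors. Bach2 encodes a repressor that restrains the change of B cells into plasma cells.

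The values are counts of unique molecular identifiers (UMIs, tags that mark single captured transcripts), summed over the cells of a class in a library and given as CPM, the UMIs of a gene per 1000000 UMIs of that sum. CPM levels are compared within a gene and not between genes. Total depth per library was 44218720, 46534365, 132282322 and 169323978 UMIs for days 7, 8, 10 and 12. The kept cells numbered 11309, 11464, 10028 and 16254, and their median depth was 3103, 3168.5, 7706.5 and 6563.5 UMIs. B-lineage cells, named from Cd79a, Cd79b, Vpreb1, Igll1 and other markers outside the 8 genes, numbered 9, 33, 829 and 1082. Other blood cells numbered 234, 800, 3962 and 6552, stromal cells 8573, 6195, 1915 and 4548, and endothelial cells 61, 330, 420 and 564. Clusters with too few or competing markers stayed unnamed and held 2432, 4106, 2902 and 3508 cells. Ranges in brackets are exact 95% Poisson intervals for CPM and Clopper-Pearson intervals for shares, and they cover counting error only. With 1 library per day no test between days or classes was possible, and cells were grouped by expression, so differences between classes are descriptions. A gene is called higher or lower from 1.5-fold, with 1 UMI added to each sum. The libraries shared 62 to 240 cell barcodes per pair of days among kept cells, and no shared barcode was a B-lineage cell in both libraries.

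The sequences around 4 of the start sites are shown for their contrast in RNA. On days 10 and 12 the RNA of Pax5 and Pou2af1 outside the B lineage stood near or below the amount that B-cell receptor UMIs of the same cells would bring along. Foxo1 and Bach2 were also read in other cell types. They are RefSeq sequences of build GRCm38.p6, from 250 bases before to 50 bases after the start, and capitals mark every match, on either strand, to any of 6 motifs.
Pax5 promoter, chr4:44710645-44710944, minus strand: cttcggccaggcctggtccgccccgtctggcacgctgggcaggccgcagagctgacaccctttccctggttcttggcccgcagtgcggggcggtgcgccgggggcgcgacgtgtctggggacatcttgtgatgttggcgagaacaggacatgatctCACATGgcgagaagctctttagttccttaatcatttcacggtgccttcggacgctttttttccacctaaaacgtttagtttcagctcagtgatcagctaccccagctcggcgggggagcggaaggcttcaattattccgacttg
Pou2af1 promoter, chr9:51213440-51213739, plus strand: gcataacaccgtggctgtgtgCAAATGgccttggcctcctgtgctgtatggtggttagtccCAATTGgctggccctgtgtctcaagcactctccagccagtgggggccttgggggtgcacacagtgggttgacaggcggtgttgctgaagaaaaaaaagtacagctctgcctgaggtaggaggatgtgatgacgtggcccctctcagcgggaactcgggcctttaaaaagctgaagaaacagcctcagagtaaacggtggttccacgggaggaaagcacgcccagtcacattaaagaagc
Foxo1 promoter, chr3:52268087-52268386, plus strand: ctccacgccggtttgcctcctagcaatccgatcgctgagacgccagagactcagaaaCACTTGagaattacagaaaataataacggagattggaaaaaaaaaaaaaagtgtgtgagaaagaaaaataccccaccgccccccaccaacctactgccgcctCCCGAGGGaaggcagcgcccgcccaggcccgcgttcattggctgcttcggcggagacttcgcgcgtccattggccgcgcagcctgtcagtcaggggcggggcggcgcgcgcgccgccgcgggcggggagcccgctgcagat
Bach2 promoter, chr4:32417185-32417484, plus strand: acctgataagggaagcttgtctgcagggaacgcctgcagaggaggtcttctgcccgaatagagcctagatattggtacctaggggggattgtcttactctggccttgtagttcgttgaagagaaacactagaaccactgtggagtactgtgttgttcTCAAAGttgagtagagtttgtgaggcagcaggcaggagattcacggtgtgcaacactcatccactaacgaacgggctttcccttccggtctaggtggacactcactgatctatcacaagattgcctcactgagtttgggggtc
The motifs, searched on both strands, were CCCNNGGG (EBF core), CANNTG (E-box, the site type of Tcf3 proteins), ATTTGCAT (octamer), CTTTGA (TCF/LEF), GTAAACA (FOXO) and TGACTCA (BACH/AP-1). E-boxes can overlap other motifs in these windows. Pax5 holds 1 E-box, Pou2af1 holds 2 E-boxes, Foxo1 holds 1 EBF core and 1 E-box, and Bach2 holds 1 TCF/LEF match. Of all 12 listed starts of the 8 genes, 10 had an E-box in their window (7 genes), 3 a TCF/LEF match (3 genes) and 1 an EBF core (1 gene). Of all 32851 promoters of this length, 72.3% hold an E-box, 16.0% a TCF/LEF match and 13.7% an EBF core. Octamer, FOXO and BACH/AP-1 letters were in 1.7%, 3.6% and 5.2% of all promoters and in none of the 8 genes' windows. A match is a run of letters and not a site that was measured.

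All 8 genes were read at higher levels in B-lineage cells than in other blood, stromal or endothelial cells on both days 10 and 12. On day 10, 8 of 8 genes were at least 1.5-fold higher than in other blood cells, against 37.1% of all genes with at least 20 UMIs; the same count was 8 of 8 against stromal cells, where 42.2% of genes were, and 8 of 8 against endothelial cells, where 29.8% were. On day 12 the counts were again 8 of 8, against 24.7% of genes for other blood, 40% for stromal and 27.9% for endothelial cells. Against other blood cells the median log2 ratio of the 8 genes was 5.42 on day 10 and 4.58 on day 12, and that of all genes tested was 0.33 and 0.01.

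Pax5 had 870 CPM (852 to 889) in B-lineage cells on day 10, against 8.84 in other blood, 9.73 in stromal and 12.2 CPM in endothelial cells. On day 12 it had 969 CPM (945 to 993) in B-lineage cells, against 9.22, 5.91 and 14.4 CPM in the same classes. The gap to other blood cells was 98.2-fold on day 10 and 105-fold on day 12. Pou2af1 had 462 CPM (449 to 475) in B-lineage cells on day 10 and 488 CPM (471 to 506) on day 12. Elsewhere it had 4.26 to 5.99 CPM on day 10 and 3.05 to 7.57 CPM on day 12, and its gaps to other blood cells were 95.9-fold and 99.8-fold.

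Ebf1 had 8963 CPM (8905 to 9021) in B-lineage cells on day 10 and 6380 CPM (6318 to 6442) on day 12. Outside the lineage it had 1128 and 711 CPM in endothelial and 1046 and 570 CPM in stromal cells on days 10 and 12, and 151 and 105 CPM in other blood cells. Tcf3 differed less between B-lineage and other blood cells. On day 12 it had 479 CPM (463 to 497) in B-lineage cells, 118 CPM in endothelial, 82.8 CPM in other blood and 62.5 CPM in stromal cells. Its ratio to other blood cells, 5.45-fold on day 10 and 5.79-fold on day 12, was the smallest of the 8 on both days.

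Lef1 had 873 CPM in B-lineage cells on day 10 and 656 CPM (636 to 676) on day 12. On day 12 stromal cells followed at 41.9 CPM, and other blood and endothelial cells, at 27.6 CPM (26.2 to 29.1) and 25.9 CPM (22.2 to 30.2), did not differ beyond their intervals. Foxo1 had 520 CPM in B-lineage cells on day 10 and 475 CPM on day 12, and endothelial cells came next at 255 and 218 CPM. Bach2 had 3084 CPM in B-lineage cells on day 10 and 2928 CPM on day 12, against 77.4 and 121 CPM in other blood cells. Il7r had 357 CPM (346 to 369) on day 10 and 257 CPM (244 to 270) on day 12 in B-lineage cells, against 15.2 and 14.9 CPM in other blood cells and 3.95 and 2.35 CPM in stromal cells.

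**Figure D1:**
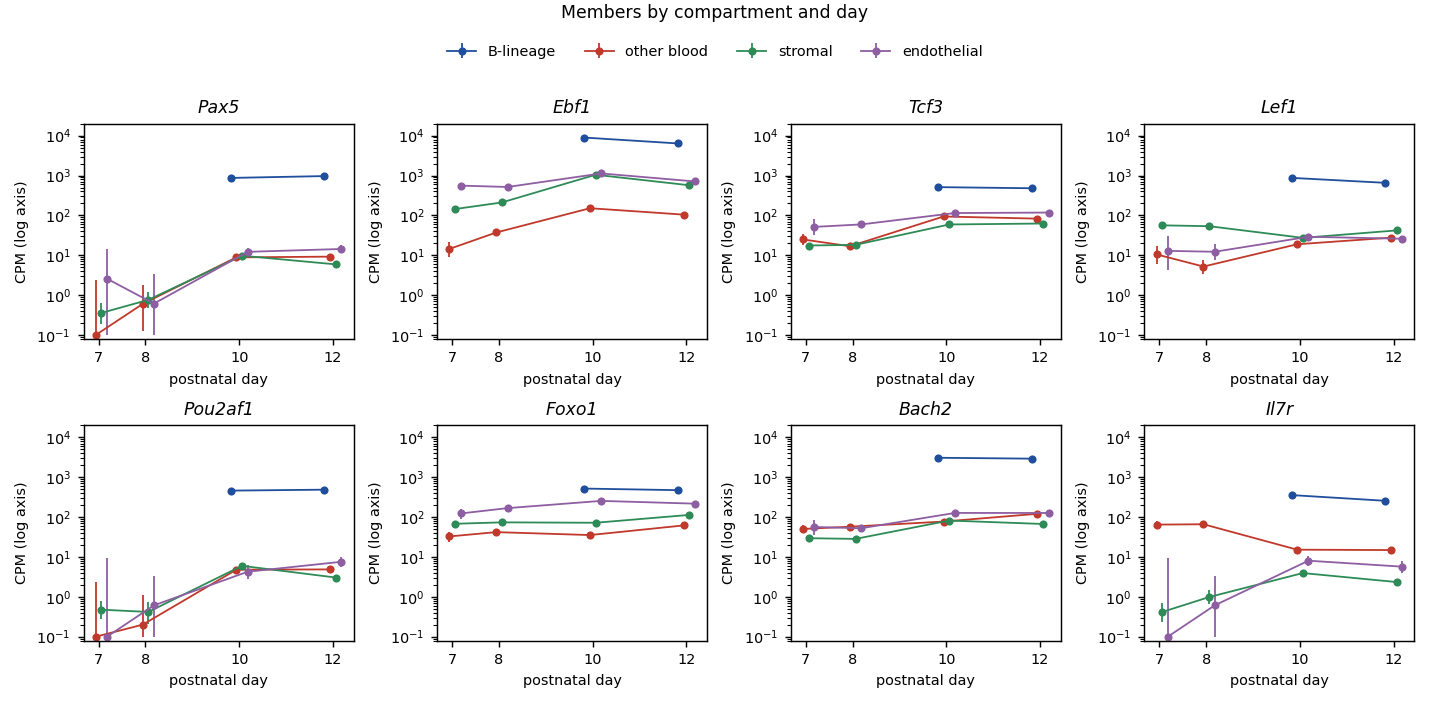
CPM of each of the 8 genes (log axis) by postnatal day in B-lineage, other blood, stromal and endothelial cells, with 95% Poisson intervals; classes under 50 cells are left out and a value or bound below 0.1 is drawn at 0.1. On days 10 and 12 the B-lineage points lie above all others in each panel.

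The genes were read together in single B-lineage cells. With every cell thinned to 1000 UMIs, 89.9% (87.6 to 91.8) of B-lineage cells on day 10 and 86.4% (84.2 to 88.4) on day 12 had UMIs of at least 3 of the 8 genes, with a mean of 4.26 and 4.11 genes. In other blood cells this share was 0.959% and 1.71%, in stromal cells 1.62% and 1.45% and in endothelial cells 5.95% and 2.84%. No cell of these 4 groups was left out by the thinning. The median depth of B-lineage cells was 8563 UMIs on day 10 and 3483.5 UMIs on day 12, and of other blood cells 7510.5 and 4410.5 UMIs. Per gene, thinned B-lineage cells with a UMI made up 95.1% for Ebf1, 82.2% for Bach2, 61.8% for Pax5, 42.8% for Foxo1, 38.5% for Tcf3, 37.5% for Pou2af1, 32.7% for Lef1 and 20.6% for Il7r on day 12. The unthinned day-12 shares were 99.2%, 94.7%, 91.6%, 78.3%, 76.7%, 76.4%, 54.1% and 45.3% in the same order. In other blood cells, the thinned shares with Pax5 and with Pou2af1 were 0.992% and 0.534%.

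B-cell receptor UMIs were also read outside the B lineage on days 10 and 12, and their source was not tested. Cd79a and Cd79b, B-cell receptor chains, summed to 1376 and 1504 CPM in B-lineage cells on days 10 and 12, against 22.3 and 26.1 CPM in other blood, 14.2 and 11.6 CPM in stromal and 29.4 and 23.2 CPM in endothelial cells. The amount of a gene carried along is the amount expected if those UMIs came with the gene at its B-lineage ratio in the same library. It was 14.1 and 16.8 CPM of Pax5 in other blood cells, against 8.84 and 9.22 CPM measured. In stromal cells the carried amounts of Pax5 were 8.98 and 7.44 CPM, against 9.73 and 5.91 CPM measured. Pou2af1 in other blood cells was likewise below its carried amount, at 4.80 and 4.87 CPM measured and 7.47 and 8.46 CPM carried. For Ebf1 in other blood cells the carried amounts, 145 and 111 CPM, were close to the measured 151 and 105 CPM. In the same cells Pax5 and Pou2af1 reached only 0.628 and 0.642 of their carried amounts on day 10, and 0.549 and 0.576 on day 12. The carried amount is therefore no exact gauge. Ebf1 in stromal cells exceeded its carried 92.5 and 49.0 CPM by 954 and 521 CPM, and in endothelial cells it exceeded the carried 191 and 98.2 CPM by 937 and 613 CPM. Foxo1, Tcf3, Bach2 and Lef1 exceeded their carried amounts in all 3 classes on both days, and Il7r did so in other blood cells by 9.46 and 10.5 CPM. On the earlier days Pax5 in other blood cells lay further below, with 0 CPM on day 7 and 0.6 CPM on day 8, against 6.18 and 11.1 CPM carried. Pou2af1 in stromal cells lay above on those days. It had 0.476 CPM (16 UMIs) and 0.417 CPM (11 UMIs), against 0.0744 and 0.254 CPM carried.

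**Figure D2:**
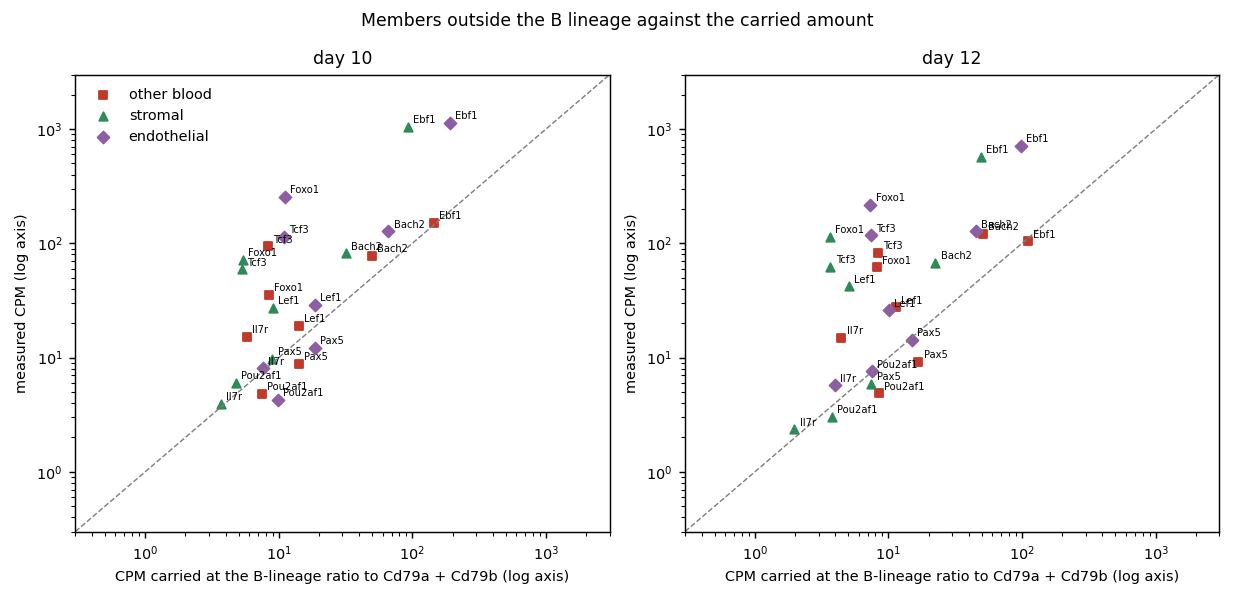
Measured CPM of the 8 genes in other blood, stromal and endothelial cells (vertical, log axis) against the CPM that each class's Cd79a and Cd79b UMIs would carry at the B-lineage ratio (horizontal, log axis), on days 10 and 12. Points on the dashed line of equality would lie at the carried amount. Pax5 and Pou2af1 lie near that line in stromal cells and below it in other blood cells. Ebf1 and Foxo1 of stromal and endothelial cells lie above it.

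Ebf1, Tcf3, Lef1, Foxo1, Bach2 and Il7r were also read in other cell types. Ebf1, a known regulator of mesenchymal and fat cell fates in mouse as well, had its highest CPM outside the lineage in mural or smooth muscle cells, which wrap blood vessels, at 2179, 3576 and 3231 CPM on days 8, 10 and 12. Tendon or ligament cells had 823, 1184 and 1043 CPM on the same days, and reticular stromal cells, which support marrow, had 738, 387, 568 and 1179 CPM on days 7, 8, 10 and 12. An unnamed cluster led by Htra4, Clic5 and Calb2 had 1724, 3260 and 2844 CPM of Ebf1 on days 8, 10 and 12, and its Foxo1, at 371, 752 and 1015 CPM, exceeded the 520 and 475 CPM of B-lineage cells on days 10 and 12. Among named classes other than B-lineage cells, Foxo1 was highest in T, NK or innate lymphoid cells, at 283 and 281 CPM on days 10 and 12. Foxo1 in endothelial cells had 123, 168, 255 and 218 CPM on days 7, 8, 10 and 12. Its intervals on day 7 (91.0 to 164) and day 8 (149 to 189) overlapped, and those of days 10 and 12 lay above the day-7 interval.

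Lef1 and Bach2 were next highest in T, NK or innate lymphoid cells. Lef1 had 394 CPM (352 to 441) there on day 10 and 419 CPM (389 to 450) on day 12, and Bach2 had 477 and 589 CPM. This class had 75 cells on day 10 and 405 on day 12. Dendritic cells followed for Bach2, at 182, 301 and 406 CPM on days 8, 10 and 12. A chondrocyte cluster with Clstn2, Pappa2 and Notum among its leading genes had 193 CPM of Lef1 on day 7 and 178 CPM on day 8, and reticular stromal cells 110 CPM on day 12. Tcf3 was highest outside the lineage in an erythroid cluster with Klf1 and Gata1, regulators of red cell formation, among its leading genes, with 204 CPM on day 10 and 217 CPM on day 12.

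Il7r outside the B lineage was high in lymphoid and dendritic cells and changed most in macrophages. T, NK or innate lymphoid cells had 180 and 174 CPM on days 10 and 12. A subset of that cluster with Il1rl1, Arg1 and Pparg among its leading genes, 76 cells on day 12, had 580 CPM (503 to 665), above the 257 CPM of all B-lineage cells. It held 7.14% of the markers of its class at 1.5-fold above the other subsets and in at least 10% of its cells, and is left unnamed. Lef1 and Bach2 had 648 and 697 CPM there, and Pax5 had 2 UMIs. Dendritic cells had 212 CPM (165 to 269), 114 CPM (102 to 128) and 47.4 CPM (41.2 to 54.3) on days 8, 10 and 12. The macrophage cluster with C1qa, Mrc1 and Lyve1 had 102 CPM (80.9 to 126), 82.9 CPM (72.7 to 94.1), 13.1 CPM (10.3 to 16.4) and 17.2 CPM (13.7 to 21.4) on days 7, 8, 10 and 12. The values of days 7 and 8 lie above those of days 10 and 12 with no overlap of intervals. At a finer clustering that cluster splits. The part led by Ccl12 and Ms4a7 had 108, 84.7, 30.8 and 17.5 CPM on days 7, 8, 10 and 12, with 118, 478, 74 and 336 cells. The Lyve1 and Folr2 part had 5, 14, 201 and 184 cells, and 2.52 and 16.4 CPM on days 10 and 12. The day-10 value of the whole cluster thus mixes parts that differ in Il7r. Il7, which encodes the ligand, was read in reticular stromal cells at 14.5 CPM (7.22 to 25.9; 11 UMIs) on day 7 and 10.7 CPM (8.69 to 12.9; 103 UMIs) on day 12.

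**Figure D3:**
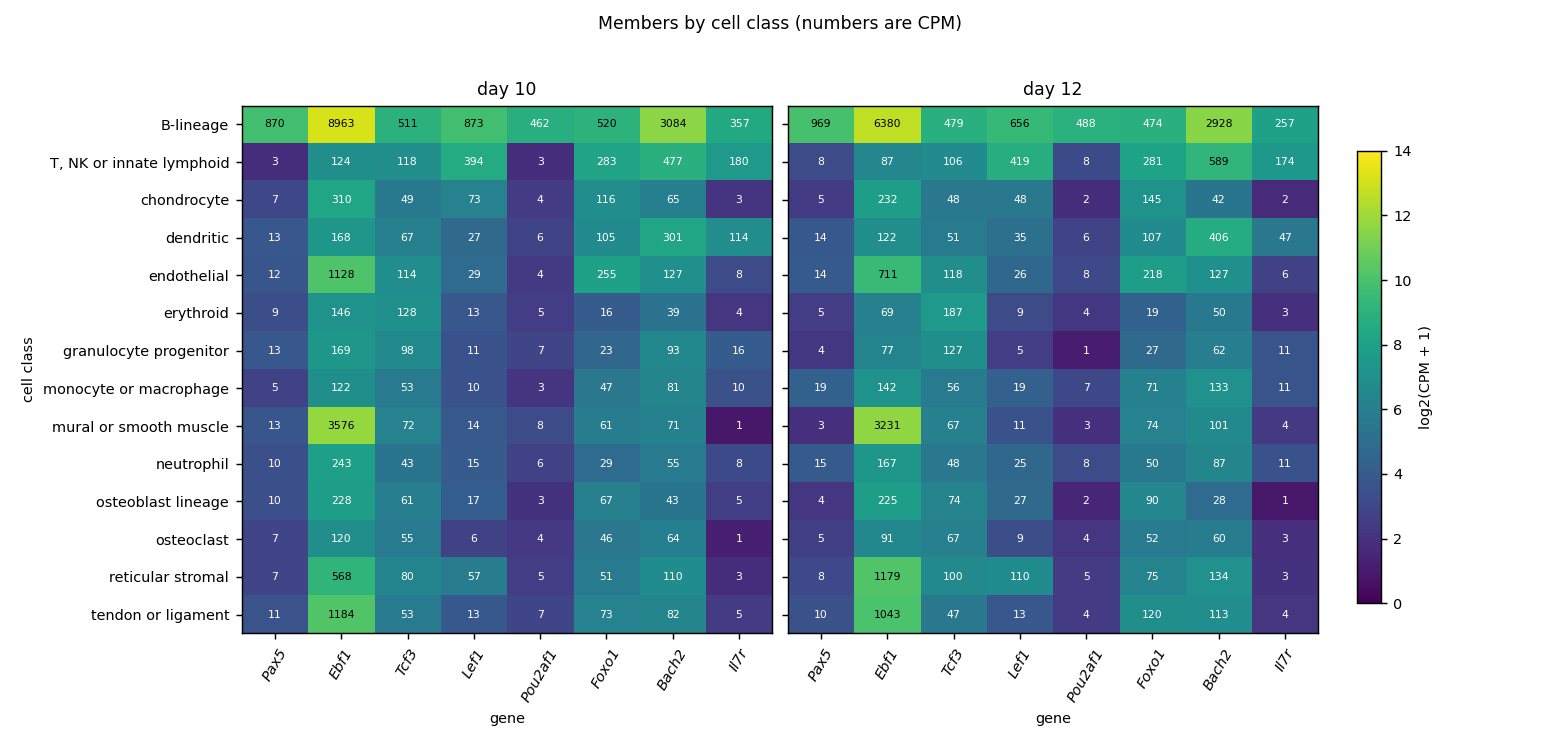
CPM of the 8 genes in each class that had 50 or more cells on day 10 and on day 12; colour gives log2(CPM + 1) and numbers give CPM. B-lineage cells form the top row, and mural Ebf1, lymphoid Lef1 and Bach2, and lymphoid and dendritic Il7r stand out among the other rows.

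On days 7 and 8 the B lineage had 9 and 33 cells, too few for levels, but most of the genes were there. The UMIs on day 7 were 22 of Pax5, 130 of Ebf1, 2 of Tcf3, 6 of Lef1, 5 of Pou2af1, 7 of Foxo1, 12 of Bach2 and 1 of Il7r. On day 8 they were 93, 493, 26, 52, 26, 31, 85 and 34 in the same order, and 25 of the 33 cells had a UMI of Pax5 and all 33 had one of Ebf1. Between day 12 and day 10 no gene of the 8 passed 1.5-fold in B-lineage cells as a whole in either direction, while 13.5% of all genes were higher and 11% lower on day 12. The largest differences were in Ebf1, which was 1.41-fold lower on day 12, and Il7r, which was 1.39-fold lower. The make-up of the lineage also differed between these days.

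Within the B lineage, Lef1, Il7r, Ebf1, Foxo1 and Bach2 differed most between subsets, and Pax5 did not pass 1.5-fold against pro-B-like cells in any of them. Cells were clustered again without the 8 genes, and pro-B-like cells (296 on day 10, 144 on day 12), mature-B-like cells (35 and 248) and unnamed subsets were found. The pro-B-like cells pool 2 clusters that split by library: 1 held 290 cells on day 10 and 9 on day 12, and the other held 6 and 135. Levels of pro-B-like cells on the 2 days therefore come from different clusters. Subset B2 was led by Reln, Il2ra and Iglc1 (170 and 276 cells), subset B3 was dividing and led by Nrgn and Myl4 (159 and 255), and subset B4 was dividing and led by Hmga2, Flt3 and Kit (142 and 153). In pro-B-like cells, subset B2 and subset B3, Ebf1 was 1.10-fold, 1.11-fold and 1.40-fold lower on day 12 than on day 10. Subset B4 had 8152 CPM of Ebf1 on day 10 and 5987 CPM on day 12. Its Bach2, at 1436 and 909 CPM, was more than 1.5-fold lower on day 12. Il7r was lower on day 12 in each of these groups. It had 336 and 268 CPM in pro-B-like cells, 603 and 402 in subset B2, 506 and 383 in subset B3, and 243 and 179 in subset B4. Lef1, 1.33-fold lower in all B-lineage cells, was 1.22-fold and 1.26-fold higher in pro-B-like cells and subset B2 and 1.07-fold lower in subset B3. In subset B4 it had 918 CPM on day 10 and 882 CPM on day 12. On day 12, 5 of 8 genes were lower in mature-B-like than in pro-B-like cells, against 20% of all genes, and none was higher, against 19.2%. Those 5 were Il7r, Lef1, Ebf1, Tcf3 and Foxo1.

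Lef1 had 111 CPM in mature-B-like cells and 2041 CPM in pro-B-like cells on day 12, an 18.2-fold lower level. It was already 10.3-fold lower in subset B2, at 197 against 2041 CPM, and on day 10 it was 10.7-fold lower there, at 156 against 1674 CPM. Il7r had 9.77 CPM (8 UMIs) in mature-B-like cells, against 268 CPM (228 to 313) in pro-B-like cells on day 12, and was highest in subset B2, with 603 CPM on day 10 and 402 CPM (357 to 450) on day 12. The day-12 value of subset B3, 383 CPM, lay within the interval of subset B2. Among the 35 mature-B-like cells of day 10 there were 5 UMIs of Il7r and 431 of Pax5. Ebf1 had 4551 CPM in mature-B-like and 12616 CPM in pro-B-like cells on day 12, 2.77-fold lower. Foxo1 and Tcf3 were 2.26-fold and 2.36-fold lower.

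Bach2 was highest in subset B2, which had 6927 and 7544 CPM on days 10 and 12, against 2728 and 2924 CPM in pro-B-like cells, 2.54-fold and 2.58-fold higher. Subset B4 had 1436 and 909 CPM, the lowest values among the subsets of at least 50 cells, and mature-B-like cells had 2112 CPM on day 12. Foxo1 was 4.41-fold lower in dividing subset B3 than in pro-B-like cells on day 12, at 229 against 1010 CPM. Pax5 varied least, from 810 to 1307 CPM over these subsets on both days, and Pou2af1 ran from 344 to 736 CPM.

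**Figure D4:**
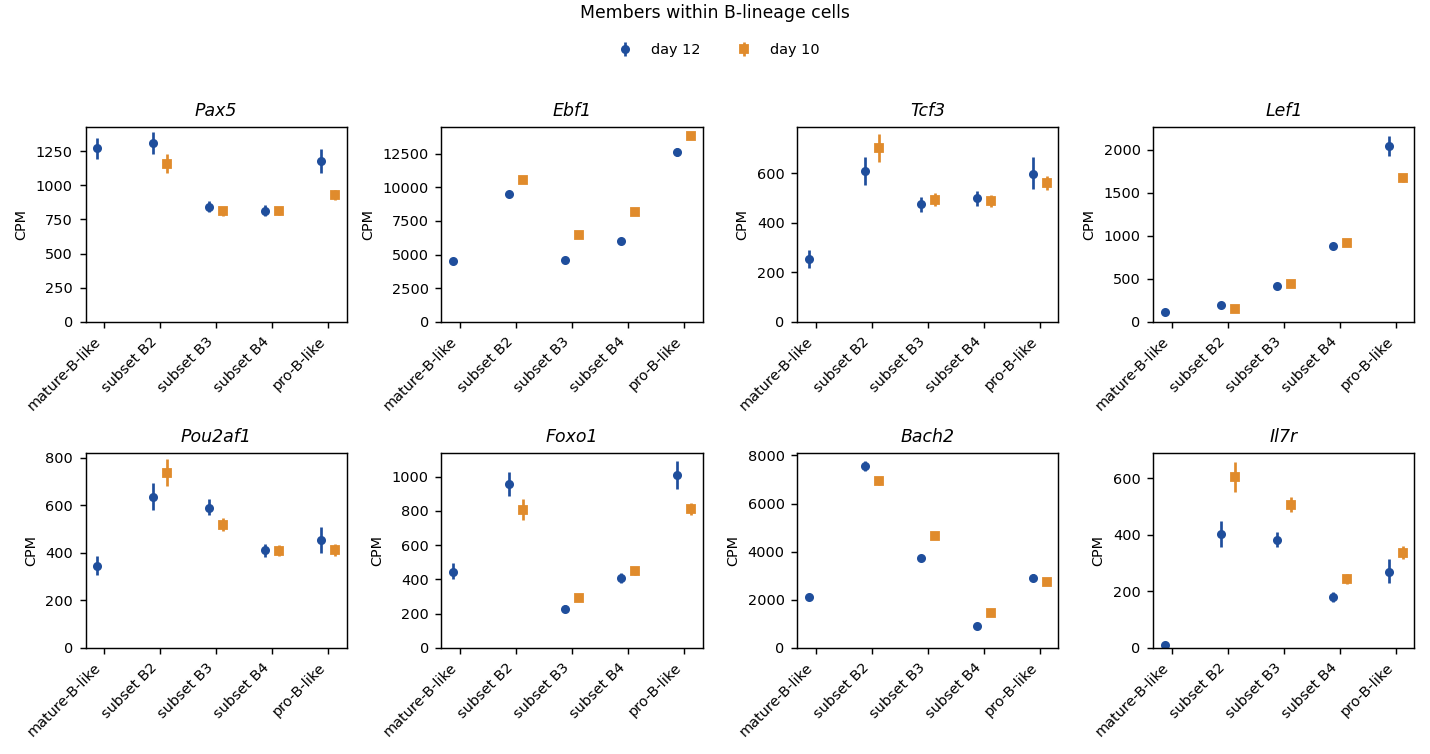
CPM of the 8 genes in B-lineage subsets of at least 50 cells, with 95% Poisson intervals, on days 12 and 10. Lef1 was highest in pro-B-like cells and Bach2 in subset B2, and Il7r was near the axis in mature-B-like cells.

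In stromal, endothelial and other blood cells, most of the 8 genes were higher on day 12 than on day 7. The B-cell receptor UMIs of these cells were higher as well. In stromal cells 7 of 8 genes were higher, against 35.1% of all genes, and none was lower, against 30.2%. Ebf1 had 570 and 144 CPM on day 12 and day 7, 3.95-fold higher, and Tcf3 had 62.5 and 17.6 CPM, 3.56-fold higher. In endothelial cells 7 of 8 were higher, against 32.9%, and none lower, against 18.7%, with 61 cells on day 7 and Pou2af1 and Il7r at 0 UMIs there. The interval of the ratio included 1 for 4 of the 7, Pax5, Lef1, Pou2af1 and Il7r, and with cells thinned to 1000 UMIs 2 genes were higher and 1 was lower. Tcf3 was 2.18-fold (1.47 to 3.77), Bach2 2.15-fold (1.47 to 3.60) and Foxo1 1.73-fold (1.32 to 2.40) higher. In other blood cells 7 of 8 were higher, against 28%, and Il7r was lower, 14.9 against 64.9 CPM, a 4.39-fold difference, as 24.7% of genes were. Cd79a and Cd79b summed to 11.6 and 0.625 CPM in stromal cells on day 12 and day 7, and to 26.1 and 11.8 CPM in other blood cells. In endothelial cells they summed to 23.2 CPM (19.6 to 27.2) on day 12 and 0 CPM (0 to 9.49) on day 7. With the carried amounts taken off, 4 genes were higher in stromal cells (Ebf1, Tcf3, Foxo1 and Bach2), 2 in endothelial cells (Tcf3 and Foxo1) and 3 in other blood cells (Tcf3, Lef1 and Foxo1). The carried amounts of day 7 rest on 9 B-lineage cells, and for other blood cells they exceeded the measured Pax5, so the count there is less firm. Pax5 had 0.357 CPM (12 UMIs) in stromal cells on day 7. In other blood cells Pax5 and Pou2af1 had no UMI on day 7. The limit of 3 counts allows up to 1.97 CPM each, and the exact interval is 0 to 2.42 CPM. Cell types also differ between days, and chondrocytes made up 8350 of 8573 stromal cells on day 7 and 1485 of 4548 on day 12. In chondrocytes alone Ebf1 had 232 and 118 CPM, 1.97-fold higher, and Tcf3 had 48.3 and 17.2 CPM, 2.81-fold higher. The chondrocytes of these days were mostly of different clusters. A cluster with Ihh, Panx3 and Col10a1 among its leading genes held 1397 of them on day 12 and 8 on day 7. The chondrocyte ratios therefore do not hold the kind of chondrocyte fixed. Lef1 moved apart in the stromal classes, with 110 and 27.6 CPM in reticular stromal cells on day 12 and day 7, 3.81-fold higher, and 47.7 and 57.6 CPM in chondrocytes. The lower Il7r of other blood cells was also seen within the macrophage cluster alone, where it had 17.2 and 102 CPM. At a finer clustering that cluster splits, and its Lyve1 and Folr2 part had 184 cells on day 12 and 5 on day 7. In the other part, with 336 and 118 cells, Il7r had 17.5 CPM (13.2 to 22.7) on day 12 and 108 CPM (85.6 to 133) on day 7.

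Genes that work with the 8 were read from lists made with earlier results of these data in view. The list counts are of genes with at least 20 UMIs in the comparison of B-lineage with other blood cells, where 37.1% of all genes were higher and 21.5% lower on day 10, and 24.7% and 27.4% on day 12. Among the IL-7 pathway genes, 6 of 14 were higher and 1 was lower on both days, with a median log2 ratio of 0.37 and 0.39. Ccnd3, a cyclin that IL-7 signalling regulates, had 318 CPM in B-lineage cells and 105 CPM in other blood cells on day 10 (3.05-fold), and 374 and 128 CPM on day 12. Among partner and competing regulators, 17 of 26 were higher and 6 lower on day 10, and 18 and 7 on day 12. Spib, an Ets factor of lymphoid cells, was 28.2-fold higher on day 10 and 46.7-fold on day 12, and Ikzf3 21.4-fold and 18.7-fold. Prdm1, the plasma cell regulator that Bach2 is known to repress, was 5.29-fold and 17.2-fold lower, and Cebpa, a myeloid factor, was 12.2-fold and 11.3-fold lower.

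Of the genes known to be activated by these factors, 14 of 14 were higher on both days, but many of them are the markers that name the class, and Lef1 is itself one of the 8. Rag2, a recombinase gene, had 105 CPM in B-lineage cells and 1.22 CPM in other blood cells on day 10. Of the 5 genes known to be repressed by Pax5, 3 were lower and 1 higher on both days. Csf1r and Ccr2 are among the markers that named macrophages, and Flt3 among those that named dendritic cells. These classes are other blood cells, so the direction of these genes against other blood cells is no finding. Against stromal cells 4 of the 5 were higher and 0 lower on day 10, and 2 and 2 on day 12. Against endothelial cells 1 was higher and 3 lower on day 10, and 1 and 4 on day 12. Csf1r, a macrophage growth factor receptor, had 7.65 CPM in B-lineage and 193 CPM in other blood cells on day 10, 24.9-fold lower, and Ccr2 was 20.9-fold lower. Notch1 was the higher one on day 10, at 79.3 against 32.9 CPM. Among paralogs, 4 of 10 were higher and 2 lower on day 10, and 1 and 3 on day 12. Tcf7l2 was 5.51-fold higher on day 10, at 203 against 36.8 CPM. Ebf2 had 6.96 CPM in B-lineage cells and 879 CPM in mural cells on day 10, and Ebf3 had 3.24 CPM in B-lineage and 262 CPM in endothelial cells. Tcf7, the paralog of Lef1 in T cells, had 8.21 CPM in B-lineage cells on day 12 and 358 CPM in T, NK or innate lymphoid cells.

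Between mature-B-like and pro-B-like cells on day 12, 4 of 11 IL-7 pathway genes were higher and 2 lower, beside 19.2% and 20% of all genes. Bcl2, which protects cells from death, had 180 CPM in mature-B-like and 28.3 CPM in pro-B-like cells, 6.03-fold higher, and Ccnd2 was 4.59-fold higher. Cish, a feedback inhibitor of cytokine signalling that STAT5 turns on, had 1 UMI in mature-B-like and 20 UMIs in pro-B-like cells, and Bcl2l1 was 5.46-fold lower. Among partner regulators, 6 of 22 were higher and 4 lower, the lower counts of both lists being near the background share. Ikzf3 had 1006 CPM in mature-B-like and 16.7 CPM in pro-B-like cells, 55.0-fold higher, and Pou2f2, an octamer factor that Pou2af1 binds, was 5.26-fold higher. Myb, a regulator of progenitors, was 7.11-fold lower. All 5 paralogs with 20 UMIs were lower, among them Tcf7l2, at 59.8 CPM in mature-B-like and 500 CPM in pro-B-like cells.

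The genes with the most similar patterns were named for each of the 8, by Pearson correlation of log2(CPM + 1) over 41 sums of a class and a day with at least 50 cells. These correlations are descriptions, since the sums share libraries and depth. B-lineage cells gave sums only on days 10 and 12, and Pax5, Pou2af1 and Cd79a were low in the other sums. Whether their correlations reflect RNA carried along was not tested. Among the nearest genes of Pax5 were Cd79a (0.966) and Pou2af1 (0.952), and among those of Pou2af1 were Vpreb3 (0.962) and Cd79a (0.957). Ebf1 was nearest to Akap12 (0.884), Enpep (0.831) and Btbd8 (0.827), Tcf3 to Hnrnph1 (0.883), Arid2 (0.883) and Eif4enif1 (0.872), and Foxo1 to Snx25 (0.800), Rras2 (0.799) and Rabep2 (0.781). Lef1 was nearest to Sit1 (0.825), A630023P12Rik (0.812) and Gm1043 (0.811). Bach2 was nearest to Ighd (0.891), Slamf6 (0.890) and Hdac8 (0.882), and the nearest genes of Il7r included Slamf7 (0.929) and BE692007 (0.911). Between Ebf1 and Il7r the correlation over the same sums was -0.127, and between Il7r and Bach2 it was 0.751.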

How the data were processed

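Epiphyseal cells from wild-type mouse femurs were measured with the MobiDrop MobiNova-100 system, 1 library per day. The deposited values are raw UMI counts per gene and cell barcode, made by the authors and not normalized, as whole numbers in the matrices show. GRCm39 is the genome build per the submitters' processing notes. No counting program, annotation or cell-calling rule is named there. The lowest total of a deposited barcode differed between libraries, from 500 to 1043 UMIs.

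Cells with at least 500 genes, 1000 UMIs and at most 15% mitochondrial UMIs were kept. Scanpy 1.11.5 (Python 3.11.15, leidenalg 0.10.2) clustered them on 2000 variable genes without the 8 genes, 40 components, 20 neighbours and resolution 1. A marker counted for a cluster if it was 2-fold up on all remaining cells and seen in 10% of the cluster. The class with the largest share of markers counted gave the name, given 3 markers, 50% of the list and no competing class; this scoring rule was set after the clusters were seen. No doublet caller was run; cells of mixed markers were left out in an alternative.

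Counts were summed per class and library and given as CPM. Ratios of Poisson counts carry exact intervals. The carried amount of a gene is the Cd79a and Cd79b UMIs of a class times the gene's ratio to them in B-lineage cells of the same library. Shares were taken with each cell thinned to 1000 UMIs. A count of 0 allows up to 3 counts. Ratios were checked on simulated counts. Genes outside the 8 were named from the lists by a rule of size: past 2-fold, at most 4 per direction, the largest ratios first, and paralogs with at least 20 CPM in a class. The 3 nearest patterns came from genes with at least 200 UMIs over the sums; some of them are not reported here. The 8 genes and all lists were chosen with earlier results of these data known. Gene symbols came from the files and promoter sequences from RefSeq (GRCm38.p6), whose coordinates were not joined to the counts.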

Additional observations from a re-analysis of the deposited data

How the results depend on the processing

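No paired analysis was possible because each day has 1 library, so days have no replicates; class ratios were taken within a library, on days 10 and 12. The counts of genes higher in B-lineage than in other blood, stromal and endothelial cells stayed within 1.5 times of the 8 reported under every alternative run. The ratios and thinned shares of single genes were less stable. Under the alternatives 726 such values stayed within the counting interval of the main value, 499 moved outside it and 8 reversed. Their sizes thus depend on the processing more than the counting intervals show. Taking off the carried amounts, chosen after seeing the data, lowered the genes higher on day 12 than day 7 to 4 in stromal (with 2 lower), 2 in endothelial and 3 in other blood cells. Remainders below 0 were set to 0. Il7r then reversed in stromal cells (log2 ratio -0.14) and in endothelial cells (-0.43), where it had 0 UMIs on day 7. The 2 lower in stromal cells were Lef1 and Pou2af1. Lef1 had 36.9 CPM left on day 12 and 56.1 CPM left on day 7. Pou2af1 in stromal cells had 3.05 CPM measured and 3.75 CPM carried on day 12. Its log2 ratio of -4.97 thus rests on 0 UMIs left on day 12 and is no measured fall. In endothelial cells, with 61 cells on day 7, thinning to 1000 UMIs gave 2 higher and 1 lower, with Pax5 (-0.40), Lef1 (-0.79) and Pou2af1 (-0.04) reversed; leaving out cells of mixed markers gave 3 higher and 1 lower, with Pax5 at -1.27, also when markers common in free RNA were left aside. Between day 12 and day 10 in B-lineage cells, where none was reported, 1 gene was lower by the mean over cells and by thinning, 2 were lower without cells of mixed markers, 1 was higher and 2 lower by the gate per cell, and 1 was higher by that gate without Col2a1. The cause was not tested. The gate left 91 and 9 B-lineage cells on days 10 and 12 and the mixed-marker rule 32 and 80, as Col2a1 was read in most cells. Thinned to 2000 UMIs, 97.23% and 97.21% of B-lineage cells had at least 3 of the genes. Depth limits the values of days 7 and 8.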
